A study of Mus musculus with 9 samples.

Results

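The genes described here are 37 mouse genes of the endoplasmic reticulum (ER): chaperones and oxidoreductases that fold secreted and membrane proteins, components that pass misfolded proteins to the proteasome, the sensors of ER stress with their transcription factors, and the channel through which new proteins enter. They were taken by gene symbol from a table of RNA-seq counts of whole mouse liver, in which all 37 had a row among 24411 genes. The livers came from 3-month-old mice on a C57BL/6 background in 3 groups of 3. The mice called cont were Atg7flox/flox without Cre and so kept a working Atg7. In the mice called Atg7-KO (Atg7flox/flox;Alb-Cre) the same floxed alleles were cut by Cre recombinase under the albumin promoter, which acts in hepatocytes and leaves Atg7 in the other cells of the liver. The mice called S351A carried the same floxed alleles and the same Alb-Cre, and in addition the p62 alleles p62S351A/p62S351A in all cells. ATG7 is needed for autophagosome formation, and p62 is an autophagy receptor that binds KEAP1 and accumulates when autophagy is blocked. The mutated serine is the one whose phosphorylation strengthens that binding. For S351A replicates 2 and 3 the title gives S351A on both alleles, while the genotype field names the second allele S352A and S353A, and the titles were followed. No library of p62 mutant mice with Atg7 intact was analysed, so the mutation was read only where Atg7 was also lost.

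Hepatocytes make most plasma proteins and pass them through the ER, where the Hsp70 protein BiP (Hspa5), the Hsp90 protein GRP94 (Hsp90b1), the lectins calreticulin and calnexin and the protein disulfide isomerases fold them. When unfolded protein builds up, the sensors IRE1 (Ern1), PERK (Eif2ak3) and ATF6 act through spliced XBP1, through translation and ATF4, and through the released ATF6 fragment to raise the genes of folding and degradation. Proteins that cannot be folded are recognised by the EDEM proteins and OS9, moved out of the ER through the SEL1L and HRD1 (Syvn1) complex and pulled into the cytosol by VCP.

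The 9 libraries held 713835 to 15426600 expected counts each, and the 3 S351A libraries were the shallowest of all (713835 to 792366), so depth and the p62 mutation cannot be told apart. The 37 genes took 0.563% to 0.808% of a library, or 4458 to 112301 counts. Atg7, read as a check of the labels, was at 45.1, 57.8 and 42.4 CPM (counts scaled to library size with the TMM factors of edgeR) in cont, at 30.2, 28.0 and 28.4 in Atg7-KO and at 21.8, 24.8 and 22.2 in S351A. Every one of the 6 Cre libraries lay below every cont library. The libraries also hold RNA of cells without Cre, and the source of the Atg7 reads that remained was not tested. The 8 hepatocyte markers were all present in each group. Xist RNA exceeded Y-linked RNA in 1 cont, 2 Atg7-KO and 2 S351A libraries, so the groups differed in sex ratio. Of the 37 genes, 35 passed the filter on low counts and were tested among 11199 genes. Derl3 and Ern1 did not pass and are given as counts.

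In cont liver the 37 genes covered a wide range of levels. On a scale of counts per exonic length, with each library set to the same total and without the TMM factors, the lectin Calr stood highest at 871 ± 257 (SD, n = 3), followed by Hsp90b1 at 827 ± 199.955, the protein disulfide isomerase P4hb at 618 ± 83.7, the isomerase Pdia3 at 311 ± 41.8 and Hspa5 at 277 ± 63.5. Calr and Hsp90b1, and Pdia3 and Hspa5, differed by less than the SD of either. The degradation genes Herpud1 and Os9 came next with 207 ± 117 and 160.4 ± 18.3, and their difference too was smaller than the SD of Herpud1. The 3 sensor genes were among the scarcest: Atf6 stood at 6.82 ± 1.04, Eif2ak3 at 3.32 ± 1.39 and Ern1 at 0.715 ± 0.496, next to the degradation gene Derl3 at 5.48 ± 4.08. Xbp1, the transcription factor gene whose RNA IRE1 splices, was far above its sensor on this scale at 69.3 ± 19.99. The order of the 37 levels was much the same in Atg7-KO, with a Spearman correlation of 0.899 over the 37 genes and the 2 group means.

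**Figure D1:**
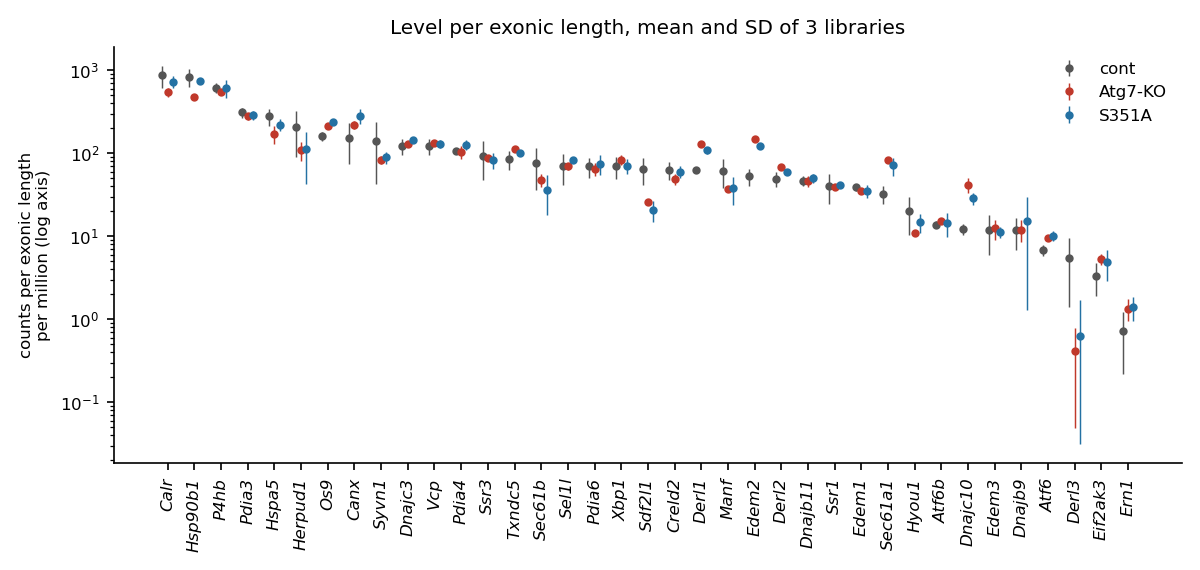
Level of each of the 37 ER genes per exonic length at equal library totals (log axis), ordered by the mean of cont. Points are means of 3 libraries and bars the SD, with the lower end shortened where it would pass 0. Calr, Hsp90b1 and P4hb lead in every group, and the sensor genes Atf6, Eif2ak3 and Ern1 stand at the right with Derl3.

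The promoters are shown because ER stress acts on many of these genes through a known pattern of bases, the ER stress response element, which is bound by ATF6 together with the CCAAT-binding factor NF-Y. RefSeq promoter windows on GRCm38.p6, the assembly of mm10, were at hand for 32 of the 37 genes; Hyou1, Manf, Derl1, Atf6 and Sec61a1 had none. In the 250 bases before a start site the pattern was searched on both strands as CCAAT, any 9 bases, then CCACG. It was present in 9 of the 32 genes (28.1%) and in 37 of 32851 mouse promoter windows of this length (0.113%). The variant ATTGG, any 1 base, then CCACG was present in Herpud1 and in 10 windows of all (0.0304%). CCACG without regard to what stands beside it, which includes every match of the longer patterns, was present in 23 of the 32 genes (71.9%) and 28.3% of windows. TGACGTG, the core that XBP1 binds, was present in Hspa5, Txndc5 and Vcp and in 1.65% of windows. The genes were listed for their known part in the ER, and several of them are textbook targets of these factors, so the shares describe the list. The stretches that hold a longer pattern follow, 5′ to 3′ on the strand of the gene, with its fixed letters in capitals. Hspa5 lies at chr2:34772020-34772048 (+), Hsp90b1 at chr10:86705513-86705676 (-), Dnajc3 at chr14:118937807-118937865 (+), Creld2 at chr15:88819500-88819558 (+), Calr at chr8:84847055-84847113 (-), Canx at chr11:50325780-50325838 (-), Pdia6 at chr12:17266471-17266529 (+), Herpud1 at chr8:94386357-94386407 (+), Syvn1 at chr19:6046512-6046570 (+) and Derl3 at chr10:75893222-75893280 (+). Where the capitals read CGTGG and ATTGG in that order, the pattern lies on the opposite strand.
Hspa5: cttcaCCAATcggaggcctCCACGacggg
Hsp90b1: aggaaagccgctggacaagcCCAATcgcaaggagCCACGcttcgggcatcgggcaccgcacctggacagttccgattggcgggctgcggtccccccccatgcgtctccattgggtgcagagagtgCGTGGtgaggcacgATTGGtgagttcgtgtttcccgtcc
Dnajc3: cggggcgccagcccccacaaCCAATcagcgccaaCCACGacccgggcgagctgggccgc
Creld2: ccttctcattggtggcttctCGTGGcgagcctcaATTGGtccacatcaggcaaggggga
Calr: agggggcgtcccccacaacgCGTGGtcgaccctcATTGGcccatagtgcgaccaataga
Canx: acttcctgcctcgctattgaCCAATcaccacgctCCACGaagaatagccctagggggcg
Pdia6: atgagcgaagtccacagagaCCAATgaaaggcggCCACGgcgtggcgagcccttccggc
Herpud1: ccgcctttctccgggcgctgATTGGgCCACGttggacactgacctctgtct
Syvn1: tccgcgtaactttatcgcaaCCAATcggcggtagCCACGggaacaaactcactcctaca
Derl3: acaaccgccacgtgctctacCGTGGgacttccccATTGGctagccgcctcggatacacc
Hsp90b1 held the pattern once on each strand, at 212 and 107 bases before its start site. In Hspa5 it began 65 bases before the RefSeq start, which lies 120 bases from the first GENCODE start of the gene, so only a short stretch is printed.

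The comparison of Atg7-KO with cont asks what loss of Atg7 in hepatocytes does to RNA of the ER machinery. Of the 35 tested ER genes, 19 were called lower and 2 higher in the livers without hepatocyte Atg7, at an adjusted p under 0.05 and a fold over 1.5, while 18.1% of all genes tested were called lower and 19.9% higher. The median log2 fold change of the 35 genes was -0.76, that of all genes tested was -0.03, and 31 of the 35 were below 0, as were 51.7% of all genes. Of the 35 genes, 25 had an unadjusted p under 0.05 (47.5% of all genes) and 22 an adjusted p under 0.05 (38.9%). The chaperones had the lowest median of the 6 roles, -1.44, and Sdf2l1 the lowest value, -2.13. Dnajc10, an ER reductase, and Edem2, which starts the trimming of mannose from misfolded glycoproteins, rose by 1.08 and 0.80. The 3 Atg7-KO libraries lay below all 3 cont libraries for 23 of the 35 genes (24.9% of all genes) and above them for 3 (26.7%). All values rest on scaling by TMM. With the total count as the scale, the median of all genes moved up by 0.54 and that of the 35 genes to -0.20, with 6 called lower and 4 higher, beside 801 lower and 4284 higher of all 11199 genes. Without the 20 most abundant genes in the library size the median was -0.32 with 8 lower and 4 higher. Of all genes, 976 were then lower and 3777 higher. None of the 21 called genes changed sign in either fit. On the scale per exonic length, also without TMM, the mean of Dnajc3 was 129.5 ± 8.44 in Atg7-KO, against 121.6 ± 27.6 in cont. No other gene called lower had a higher mean in Atg7-KO on that scale. The distance between the ER genes and all genes, -0.72 here, stayed between -0.89 and -0.60 over the 21 alternatives. The count of 19 fell to 10 without Atg7-KO replicate 2 (1487 of 11566 genes tested), to 11 without Atg7-KO replicate 1 (1452 of 11487) and to 12 with all libraries thinned to the smallest (1265 of 8588), where Dnajb11, Dnajc3, Creld2, Pdia6, Edem1, Sel1l and Ssr1 were not called. With the level of Xist as a covariate, added to the fit because the groups differed in sex ratio, 15 were lower (1924 of 11199 genes), without Dnajc3, Pdia6, Sel1l and Ssr1. In whole liver, fewer cells of a type and less RNA per cell cannot be told apart.

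**Figure D2:**
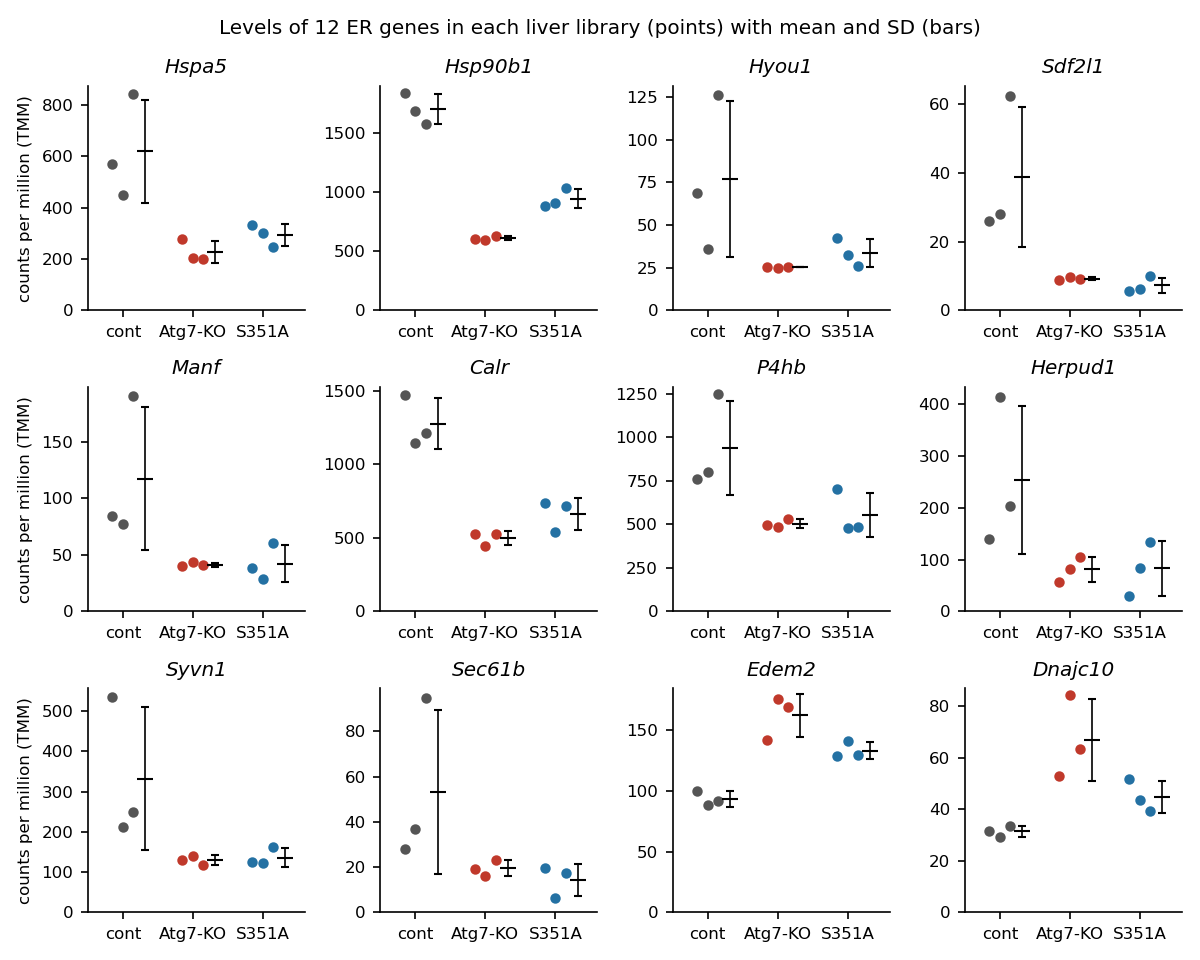
CPM (TMM scale, each axis from 0) of 12 of the ER genes in the 9 liver libraries. Points are libraries, horizontal marks means and bars the SD of 3. For the first 10 genes the Atg7-KO libraries lie below all cont libraries, with means of 228 against 619 for Hspa5, and for Edem2 and Dnajc10 they lie above.

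Among the chaperones, 8 of 9 were called lower and the Atg7-KO libraries of these 8 lay below every cont library. Hspa5 was at 568, 449 and 840 CPM in cont and at 277, 205 and 199.97 in Atg7-KO. On the log2 scale it changed by -1.44 (SE 0.27), with an adjusted p of 0.00129 in the quasi-likelihood test of edgeR. Hsp90b1 was at 1838, 1688 and 1582 CPM in cont and at 603, 598 and 632 in Atg7-KO, a change of -1.48 (SE 0.22, adjusted p = 2.50e-04), and of the 9 chaperones it had the most counts. The narrow cont range of Hsp90b1 set it apart from Hspa5, in which cont replicate 3 stood well above the others. Sdf2l1, a partner of BiP complexes, fell from 26.1, 28.2 and 62.4 CPM to 8.82, 9.69 and 9.15 (-2.13, SE 0.34, adjusted p = 4.45e-04). Hyou1, the nucleotide exchange factor of BiP also called GRP170, was at 68.7, 36.3 and 126 CPM in cont and at 25.5, 25.1 and 25.6 in Atg7-KO (-1.62, SE 0.36, adjusted p = 0.00374). The highest and the lowest cont library of Hyou1 differed 3.49-fold, those of Atg7-KO 1.02-fold. Manf, a secreted protein that binds BiP, was at 84.5, 77.5 and 190.0 CPM in cont and at 39.9, 43.4 and 40.7 in Atg7-KO (-1.52, adjusted p = 0.0038). Creld2, an ER protein induced by stress, changed by -1.04 (adjusted p = 0.00194), from 47.7, 41.2 and 42.7 CPM to 17.6, 25.8 and 20.6. Dnajb11, Dnajc3 and Dnajb9 are J-domain partners of BiP. Dnajb11 went from 67.4, 66.6 and 106 CPM to 48.7, 40.2 and 54.5 (-0.76, adjusted p = 0.018), and Dnajc3, also an inhibitor of PERK, from 340.1, 318 and 301 CPM to 216, 214 and 206 (-0.59, adjusted p = 0.0233). Dnajb9 overlapped between the groups at 13.3, 8.80 and 26.1 CPM against 12.3, 7.54 and 9.15 (-0.79, adjusted p = 0.227). Dnajb11 was not called without cont replicate 3, Atg7-KO replicate 1 or Atg7-KO replicate 2 (adjusted p from 0.0597 to 0.0889), nor Dnajc3 without cont replicate 1 or any of the 3 Atg7-KO libraries (adjusted p from 0.0335 to 0.0887, fold under 1.5 at the first). In all, the call of Dnajc3 was lost in 13 of 21 alternatives, among them RLE size factors, DESeq2, either other filter and the Xist covariate.

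The 2 lectin chaperones, which hold glycoproteins by their sugars, parted. Calr, the soluble one, was at 1475, 1145 and 1211 CPM in cont and at 526, 447 and 525 in Atg7-KO (-1.35, SE 0.23, adjusted p = 7.36e-04). Canx, its membrane-bound relative, was at 475, 369 and 216 CPM in cont and at 353, 315 and 318 in Atg7-KO, a change of -0.10 with a 95% interval from -0.65 to 0.45, and took the opposite sign when scaled by total counts (0.41) or without cont replicate 1 (0.15). The difference between the 2 genes was not tested.

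Of the 6 oxidoreductases, which form and rearrange disulfide bonds, 4 were called lower and 1 higher. P4hb was at 763, 802 and 1247 CPM in cont and at 496, 482 and 533 in Atg7-KO (-0.90, SE 0.26, adjusted p = 0.0164). Pdia3, which works with the lectins, was at 407, 455 and 694 CPM against 282, 257 and 293 (-0.91, adjusted p = 0.0101), Pdia4 at 113, 126 and 170.4 against 83.5, 90.1 and 64.5 (-0.78, adjusted p = 0.0139), and Pdia6 at 113, 99.3 and 205 against 87.0, 75.7 and 67.7 (-0.86, adjusted p = 0.0297). In all 4 genes cont replicate 3 was the highest library and no Atg7-KO library reached a cont library. Txndc5 overlapped at 214, 149 and 232 CPM against 159, 159 and 163 (-0.31, adjusted p = 0.265, and 0.23 when scaled by total counts). Dnajc10, the reductase that opens disulfides before degradation, went the other way, from 31.8, 29.2 and 33.5 CPM to 52.9, 84.3 and 63.6 (1.08, SE 0.21, adjusted p = 0.00159), and stayed called under all 21 alternatives. Pdia3 was not called without Atg7-KO replicate 2 (adjusted p = 0.0522), Pdia4 not without Atg7-KO replicate 3 (0.0771), P4hb not without Atg7-KO replicate 1 or 2 (0.0604 and 0.0675), and Pdia6 not without cont replicate 3 (0.129) or any Atg7-KO library (0.0586 to 0.108), with Xist as a covariate (0.0920) or on thinning (0.0863).

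Genes of ER-associated degradation were mixed, with 4 of 10 tested genes lower, 1 higher and a median of -0.57. Herpud1, a stress-induced adaptor of the HRD1 complex, was at 140.5, 413 and 204 CPM in cont and at 57.3, 81.5 and 104 in Atg7-KO (-1.65, SE 0.48, adjusted p = 0.016). Its cont libraries spread 2.94-fold, and it was not called without cont replicate 2 (-1.11, adjusted p = 0.0595) or without Atg7-KO replicate 1 or 2 (0.0768 and 0.0532). Syvn1, the ubiquitin ligase HRD1, was at 536, 211 and 249.95 CPM in cont and at 131, 140.3 and 117 in Atg7-KO (-1.36, SE 0.32, adjusted p = 0.00519), and 1.87% of its exonic bases are shared with the neighbour Mrpl49. Sel1l, the scaffold of that ligase, was at 385, 275 and 246 CPM against 199, 192 and 175 (-0.67, adjusted p = 0.0265), a call lost without cont replicate 1 or any Atg7-KO library (0.0675 to 0.102), with Xist as a covariate (0.0625), in the 6 compared libraries (0.0578) and on thinning (0.0563). The 3 EDEM genes differed in direction. Edem1 was at 120.1, 116 and 159 CPM in cont and at 70.5, 70.0 and 72.8 in Atg7-KO (-0.89, adjusted p = 0.00475). Edem2 was at 100.4, 88.4 and 91.6 CPM in cont and at 142, 176 and 169 in Atg7-KO (0.80, SE 0.18, adjusted p = 0.00472), with all libraries apart and the call kept under all 21 alternatives. Edem3 overlapped at 52.1, 22.5 and 40.8 CPM against 31.6, 21.5 and 21.96 (-0.59, adjusted p = 0.12, and 0.0134 without cont replicate 2). The derlins Derl1 and Derl2, membrane proteins of the exit channel, changed by 0.30 and -0.23 and the lectin Os9 by -0.30, none of them called. Derl2 and Os9 took the opposite sign when scaled by total counts (0.30 and 0.23). Derl1 was called higher with total counts or without the 20 most abundant genes in the library size. Vcp changed by -0.56 (adjusted p = 0.0372), from 292, 338 and 274 CPM to 203, 206 and 207, with 7.26% of its exonic bases shared with 1700022I11Rik, and missed the fold limit, which it passed without cont replicate 1 or 3 (-0.59 and -0.63). Derl3 had 14, 11 and 35 counts in cont and 0, 1 and 1 in Atg7-KO. Over the group the Atg7-KO level was 0.0559 times that of cont, with an exact 95% counting interval from 0.00662 to 0.211 that covers counting error only.

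By edgeR none of the 4 tested stress sensor genes and factors was called, and 1 had an unadjusted p under 0.05, Atf6b, which limma-voom called lower (adjusted p = 0.0493). Xbp1 was at 106, 79.9 and 174 CPM in cont and at 94.2, 81.8 and 82.8 in Atg7-KO (-0.48, 95% interval -1.01 to 0.05, adjusted p = 0.182). Without cont replicate 2 its change was -0.72 (adjusted p = 0.0414), and with total counts as the scale it was 0.08. The table gives 1 count per gene and library, so spliced and unspliced Xbp1 RNA were not told apart. Atf6b, the paralog of Atf6, was at 15.9, 18.7 and 26.1 CPM in cont and at 13.7, 12.6 and 13.7 in Atg7-KO (-0.64, adjusted p = 0.0677), without overlap, and was called without cont replicate 1 or S351A replicate 3 (0.0360 and 0.0493). Atf6 changed by -0.26 (95% interval -0.65 to 0.13) and Eif2ak3 by -0.04 (-0.72 to 0.64), the first of opposite sign with total counts (0.29) and the second under 8 of 19 alternatives. Ern1 had 7, 3 and 37 counts in cont and 19, 9 and 6 in Atg7-KO, a ratio of 1.21 with a counting interval from 0.757 to 1.93. The sensors are switched on by changes in their proteins, which these levels of RNA do not measure. The kit did not keep the strand, and 8.05% of the exonic bases of Eif2ak3 are shared with Gm43292 on the opposite strand.

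By edgeR 2 of the 4 translocation genes were called lower and none higher. Sec61b, the small β subunit of the channel, was at 28.0, 36.97 and 94.7 CPM in cont and at 19.0, 16.2 and 23.3 in Atg7-KO (-1.51, SE 0.41, adjusted p = 0.0123). Ssr1, a subunit of the translocon-associated complex, was at 270.2, 149 and 229 CPM against 130.2, 133 and 130.4 (-0.72, adjusted p = 0.0255). Ssr3, another subunit, was at 263, 110.2 and 225 CPM against 113, 117 and 122 (-0.77, adjusted p = 0.053). It was called lower without cont replicate 2 (0.00326), by DESeq2, without a filter and with the replicate block. Sec61a1, the pore subunit, was at 116, 81.3 and 144 CPM in cont and at 164, 188 and 181 in Atg7-KO, without overlap (0.64, 95% interval 0.15 to 1.12, adjusted p = 0.0585). Of its exonic bases, 8.16% are shared with the antisense gene Gm44170. Sec61a1 was called higher under 9 of 21 alternatives, among them DESeq2, limma-voom and the fit without cont replicate 3 (0.85, adjusted p = 0.0191). Sec61b was not called without cont replicate 3 (-0.77, adjusted p = 0.0629) or without Atg7-KO replicate 1 or 2 (0.0511 and 0.0551), and Ssr1 not without cont replicate 1 (0.0709) or any Atg7-KO library (0.0773 to 0.0840), with Xist as a covariate (0.112), in the 6 compared libraries (0.0563) or on thinning (0.0668). Over the 35 tested genes the fold change and the exonic length had a Spearman correlation of 0.41, and over 10806 genes with a length 0.05, both across genes, which are not independent.

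**Figure D3:**
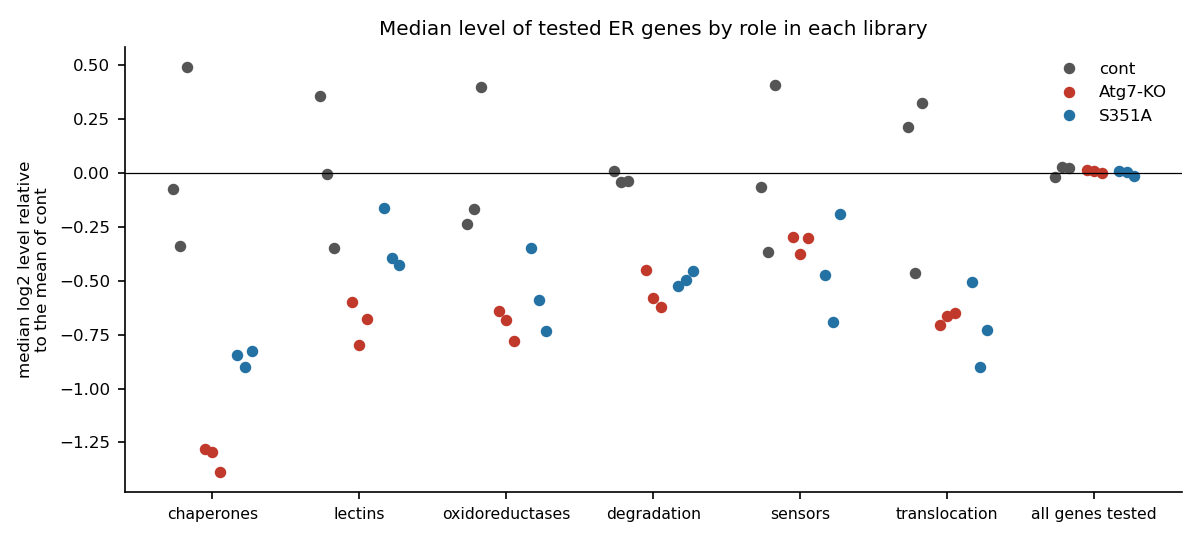
Median log2 level of the tested ER genes of each role in each library, relative to the mean of cont, and the same over all genes tested. Points are the 9 libraries. The chaperone medians lie from -1.39 to -1.28 in Atg7-KO and from -0.90 to -0.82 in S351A, and the medians of all genes lie near 0 in every library.

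Set against the promoter stretches above, 8 of the 9 tested genes with a longer pattern were called lower in Atg7-KO, all but Canx, with a median of -1.35. Of the 12 tested genes with CCACG alone, 5 were called lower (median -0.70), and of the 9 with neither, 4 were lower and 2 higher (median -0.64). The 2 that were higher, Dnajc10 and Edem2, held none of these letters in the window, nor did Dnajb11, Pdia3, Pdia4 and Sec61b, which were called lower. Of the 5 genes without a window 2 were called lower. Beside these stand 18.1% of all genes tested lower and 19.9% higher. Leaving out Atg7-KO replicate 1 or 2 ended calls in each class: Dnajc3, Pdia6 and Herpud1, then P4hb, Sel1l and Ssr1, then Dnajb11 and Sec61b. In S351A against cont, 6 of the 9 with a longer pattern were lower (median -0.85), beside 13.0% of all genes. With CCACG alone 5 of 12 were lower there (-0.63), and with neither 2 of 9 (-0.66). These counts describe 35 genes and were not tested.

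Outside the 37 genes, 76 of 79 listed genes of ER folding, degradation, translocation and stress signalling were tested. In Atg7-KO 16 were called lower and 4 higher, with a median of -0.13, beside 18.1% and 19.9% of all genes, so the share called lower was near that of all genes. Lower were 5 of 22 other folding genes, among them the prolyl isomerase Fkbp2 (-1.39), Serp1 (-1.40) and the isomerase Pdia5 (-1.02). Lower too were 4 of 19 other degradation genes and 6 of 24 genes of translocation, signal cleavage and glycosylation, with the third channel subunit Sec61g at -1.59 and Sec63, a partner of BiP at the channel, at -1.23. Of 4 tested genes of the PERK arm none was called, with Atf4 at -0.63 (adjusted p = 0.0532) and Ddit3, also called CHOP, at 0.46 (adjusted p = 0.137). Among 7 ER-bound factors, Creb3l3, a factor of hepatocytes, fell by 1.21, and Creb3l1, Creb3l2 and the protease gene Mbtps2 rose by 3.07, 1.02 and 1.12.

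Markers of other cells and of hepatocyte output moved with the groups. The counts called in Atg7-KO below stand beside 18.1% of all genes tested lower and 19.9% higher. The summed level of 8 hepatocyte markers was 58857 to 128839 CPM in cont, 34265 to 42168 in Atg7-KO and 33082 to 48912 in S351A, with 7 of the 8 called lower in Atg7-KO and Hnf4a at 0.38 (adjusted p = 0.251). Of 20 secreted proteins, the cargo of the ER, 14 were called lower in Atg7-KO. Alb, Ttr, Apoa1 and Apoa2 stand in both lists and were all 4 called lower, so the sums are not independent. The 20 secreted proteins together summed to 78982 to 168632 CPM in cont, 59092 to 64679 in Atg7-KO and 59584 to 71413 in S351A. Markers of ductular cells summed to 78.2 to 128 CPM in cont, 904 to 1298 in Atg7-KO and 826 to 1291 in S351A, all 8 called higher in Atg7-KO, and those of stellate cells and fibroblasts to 297 to 598, 1338 to 1809 and 1218 to 1749 CPM, 7 of 10 higher. The 5 genes of proliferating cells were all higher in Atg7-KO, at 93.7 to 132 CPM against 10.7 to 18.4 in cont. Genes of plasma cells and B cells, which are rich in ER, stayed low at 8.90 to 15.5 CPM in cont, 15.1 to 21.96 in Atg7-KO and 10.3 to 17.4 in S351A. Macrophage markers (6 of 11 higher, 1 lower in Atg7-KO) and endothelial markers (2 of 8 lower, 1 higher) overlapped in sum between S351A and cont. The 5 T and NK cell genes summed to 2.54 to 10.2 CPM in cont, 10.8 to 19.7 in Atg7-KO and 9.93 to 20.7 in S351A, and Cd8a, the 1 that could be tested, was higher in Atg7-KO (4.22, adjusted p = 9.90e-04). The 3 neutrophil genes summed to at most 9.15 CPM in any library and overlapped between the groups. The part of these shifts in the ER results was not tested.

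S351A livers were next compared with cont, using the same 3 cont libraries, so the values of the 2 comparisons are given side by side and not as separate evidence. Of the 35 genes 15 were called lower and none higher, against 13.0% and 15.6% of all genes. Of the 35, 27 had an unadjusted p under 0.05 (41.0% of all genes), 15 an adjusted p under 0.05 (28.9%), and 30 were below 0 (51.4%). The count of 15 fell to 6 without S351A replicate 2 (887 of 11772 genes tested) and to 5 in a fit of the 6 compared libraries (764 of 9506), which were Hspa5, Sdf2l1, Manf, Syvn1 and Sec61b. On thinning it was 10, without Creld2, P4hb, Edem1, Vcp and Ssr3. DESeq2 called 16 lower and limma-voom 12, without Hyou1, Sec61b and Ssr3, and neither called any higher. With the level of Xist as a covariate 11 were lower (1369 of 11199 genes), without Hyou1, P4hb, Syvn1 and Ssr3. The median was -0.68 and that of all genes -0.03. With total counts as the scale the median of all genes rose by 0.49 and that of the ER genes was -0.18. Then 3 were lower and 3 higher, beside 512 and 3498 of all 11199 genes, and none of the 15 called genes changed sign. On the scale per exonic length, also without TMM, the mean of Vcp was 129.7 ± 14.2 in S351A, against 121.1 ± 25.5 in cont. No other gene called lower had a higher mean in S351A on that scale. The S351A libraries lay below all cont libraries for 20 of the 35 genes (18.4% of all genes) and above them for 2 (19.6%), Dnajc10 and Edem2.

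Of the chaperones 6 of 9 were called lower, with a median of -0.85. Hspa5 was at 333, 299 and 248 CPM in S351A, a change of -1.08 (SE 0.27, adjusted p = 0.0107) where Atg7-KO gave -1.44. Hsp90b1 was at 886, 911 and 1040.3 CPM, a change of -0.85 (SE 0.21, adjusted p = 0.0107) beside -1.48. Both lay between the Atg7-KO and the cont means. Sdf2l1 was at 5.74, 6.21 and 9.87 CPM (-2.47, SE 0.43, adjusted p = 0.00135) and Manf at 37.9, 28.6 and 60.5 CPM (-1.49, adjusted p = 0.00925), and these calls held under every alternative that could be run. Sdf2l1 rested on 5, 5 and 8 counts. Hyou1 was at 42.5, 32.3 and 25.9 CPM and overlapped with cont (-1.22, adjusted p = 0.0335), a call lost without cont replicate 3 (-0.62, adjusted p = 0.146) or any S351A library (0.0550 to 0.0970), in limma-voom (0.105), with Xist as a covariate (0.172) and in the 6 compared libraries (0.0920). Creld2 changed by -0.76 (adjusted p = 0.0271), a call lost without S351A replicate 1 or 2 (0.113 and 0.0596). Sel1l, called in Atg7-KO, was at -0.41 (adjusted p = 0.176, and 0.05 on the log2 scale with total counts). Dnajb11 at -0.66 and Dnajc3 at -0.45 were not called (adjusted p = 0.0554 and 0.087, and 0.02 on the log2 scale for Dnajc3 with total counts), though Dnajb11 was called without cont replicate 1 or 2 (0.0358 and 0.0323). In this comparison samples with the same replicate number deviated together, and with the replicate number as a block 19 genes were lower, the further ones being Dnajb11 (adjusted p = 0.0318), Edem3 (0.0477, named after its value was seen), Xbp1 (0.0432) and Ssr1 (0.0478).

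Among the other genes, Calr was at 734, 538 and 717 CPM (-0.95, adjusted p = 0.00922). Of the oxidoreductases Pdia3 (-0.87, adjusted p = 0.0179) and P4hb (-0.76, adjusted p = 0.0459) were called lower, and Pdia4 (-0.52) and Pdia6 (-0.68) were not (adjusted p = 0.104 and 0.102). Pdia3 lost its call without S351A replicate 2 (0.0586), Pdia6 gained one without cont replicate 2 (0.0384), and P4hb lost its call in 12 of 21 alternatives, among them leaving out cont replicate 3, S351A replicate 2 or 3 or any Atg7-KO library (0.0674 to 0.143). In degradation 4 genes were lower. Herpud1 was at 29.9, 84.4 and 134.5 CPM, all below the lowest cont library (-1.61, adjusted p = 0.0271). It was not called without cont replicate 2, S351A replicate 1 or S351A replicate 2 (0.0893, 0.0860 and 0.0871). Edem1 changed by -0.89 (adjusted p = 0.00922), beside -0.89 in Atg7-KO, and Syvn1 by -1.28 (adjusted p = 0.0111, but 0.0513 without S351A replicate 2 and 0.0595 with Xist as a covariate). Vcp, at 217, 195 and 181 CPM, changed by -0.61 (adjusted p = 0.0344) and was not called when any library but cont replicate 1 or 3 was left out (0.0557 to 0.0893). Dnajc10 and Edem2, higher in Atg7-KO, stood at 51.7, 43.5 and 39.5 CPM and at 129, 142 and 130 CPM, above every cont library. They changed by 0.51 and 0.51 (adjusted p = 0.112 and 0.0591). Both were called higher with total counts or without the 20 most abundant genes in the library size. Sec61b was at 19.5, 6.21 and 17.3 CPM (-1.93, SE 0.49, adjusted p = 0.0119, but 0.0576 without S351A replicate 2 and 0.0512 in limma-voom). Ssr3 changed by -0.88 (adjusted p = 0.044), a call lost in 15 of 21 alternatives, among them leaving out any library other than cont replicate 2 (0.0589 to 0.149). Xbp1 was at 70.1, 58.4 and 87.6 CPM, overlapping with cont (-0.74, adjusted p = 0.0676, and 0.0159 without cont replicate 2), and Ssr1 changed by -0.66 (adjusted p = 0.0503, and 0.00963 without cont replicate 2). Derl3 had 1, 0 and 0 counts, a level 0.104 times that of cont (counting interval 0.0026 to 0.604), and Ern1 had 4, 3 and 2.

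**Figure D4:**
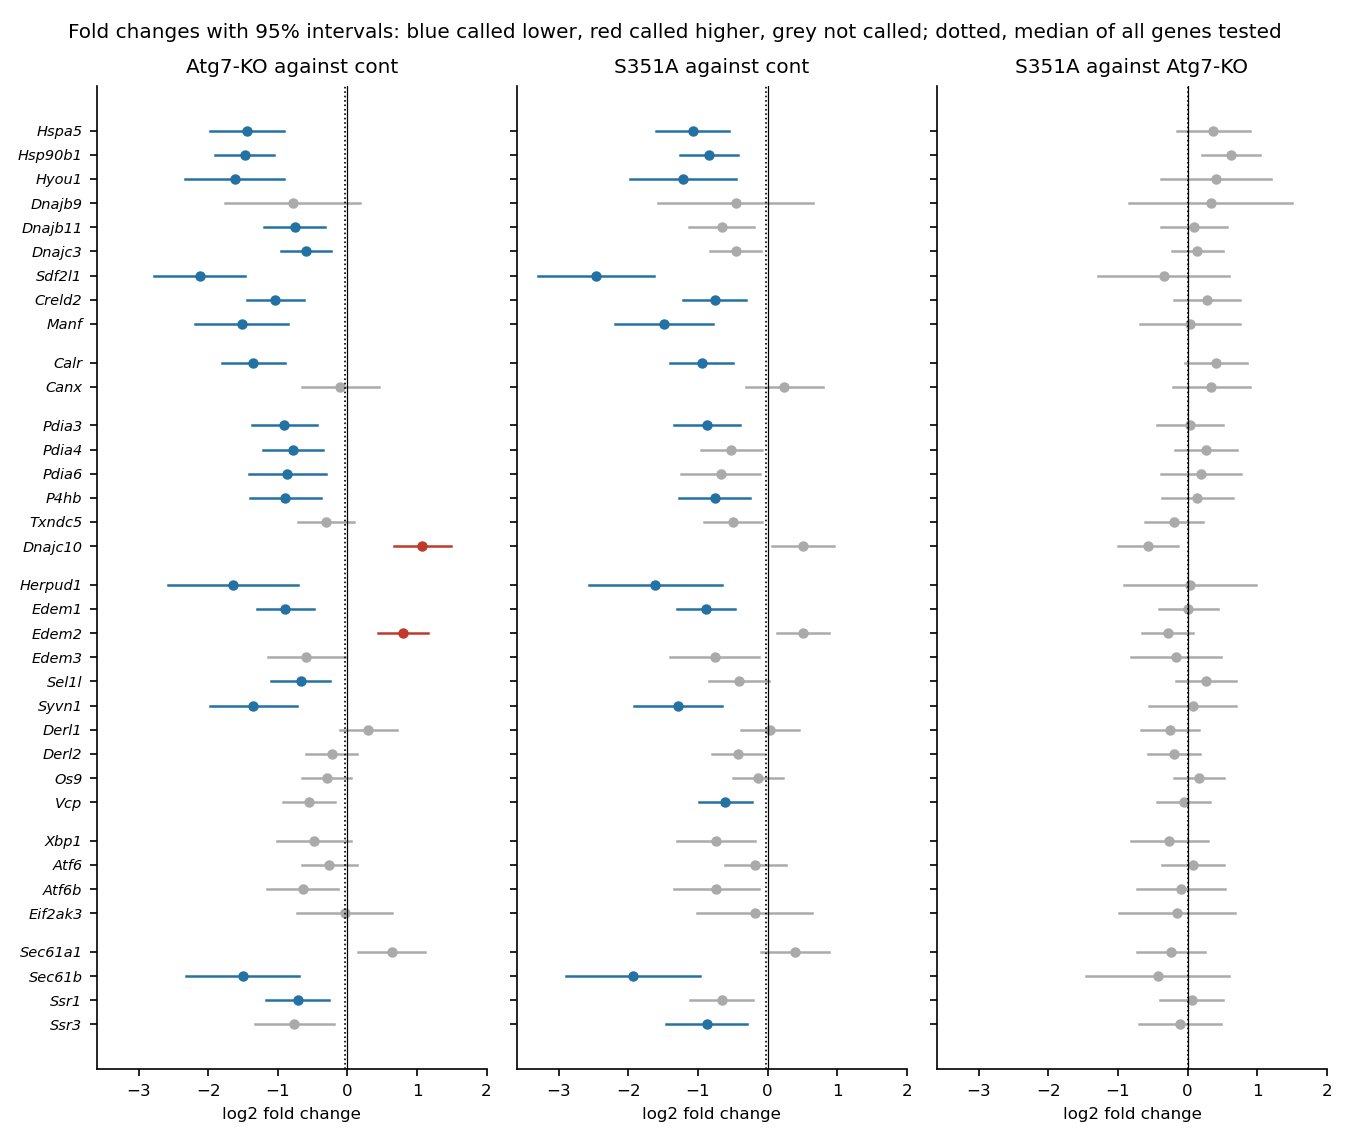
Log2 fold change of the 35 tested ER genes with 95% intervals in the 3 comparisons, grouped by role from chaperones at the top to translocation at the bottom. Blue genes were called lower, red genes higher and grey genes not called, and the dotted line is the median of all genes tested. Atg7-KO has 19 blue and 2 red genes, S351A has 15 blue, and the comparison of the mutants has none.

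S351A livers compared directly with Atg7-KO livers address what the p62 mutation adds where Atg7 is lost. No ER gene was called in either direction by edgeR, against 0.00893% of all genes lower and 0% higher. At an unadjusted p under 0.05 there were 2 of 35, against 6.60% of all genes, and DESeq2 called 1 higher, Hsp90b1, beside 23 higher and 17 lower of all 11199 genes. The median of the 35 genes was 0.04 and that of all genes 0.01, and 14 of the 35 were below 0 (48.8% of all genes). Hsp90b1 was at 603, 598 and 632 CPM in Atg7-KO and at 886, 911 and 1040.3 in S351A, without overlap and a change of 0.63 (95% interval 0.21 to 1.05, unadjusted p = 0.0114, adjusted p = 0.672 in edgeR, and 0.0210 in DESeq2). In all 3 S351A libraries Hsp90b1 was higher than in any Atg7-KO library and lower than in any cont library. Of the exonic bases of Hsp90b1, 10.3% are shared with the pseudogene 1810014B01Rik on the opposite strand, and the kit did not keep the strand. Dnajc10 was lower in S351A, at 51.7, 43.5 and 39.5 CPM against 52.9, 84.3 and 63.6 (-0.57, 95% interval -1.01 to -0.14, unadjusted p = 0.0238, adjusted p = 0.711), also without overlap.

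The groups did not overlap for 6 genes that were higher in S351A than in Atg7-KO (7.67% of all genes) and for 5 that were lower (9.23%). Among the higher were Calr at 0.41 (95% interval -0.04 to 0.86), Hyou1 at 0.40 (-0.39 to 1.197), Sel1l at 0.26 (-0.17 to 0.69) and Dnajc3 at 0.14 (-0.23 to 0.50). Edem2 was among the lower at -0.29 (-0.65 to 0.08). Hspa5 changed by 0.37 with an interval from -0.16 to 0.89, and Xbp1 by -0.26 with an interval from -0.82 to 0.29, and both overlapped. Of the 9 chaperones 8 were above 0, with a median of 0.28, and Sdf2l1 was at -0.34 (-1.29 to 0.60, and 0.13 on thinning). The medians of the other roles were 0.38 for the lectins, 0.09 for the oxidoreductases, -0.02 for degradation, -0.12 for the sensors and -0.17 for translocation, where Sec61b was at -0.43 (-1.45 to 0.60). The other genes called against cont in either comparison lay between -0.11 for Ssr3 and 0.28 for Creld2, and most of these values changed sign under some alternative. The other listed ER genes had none called and a median of 0.00395.

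**Figure D5:**
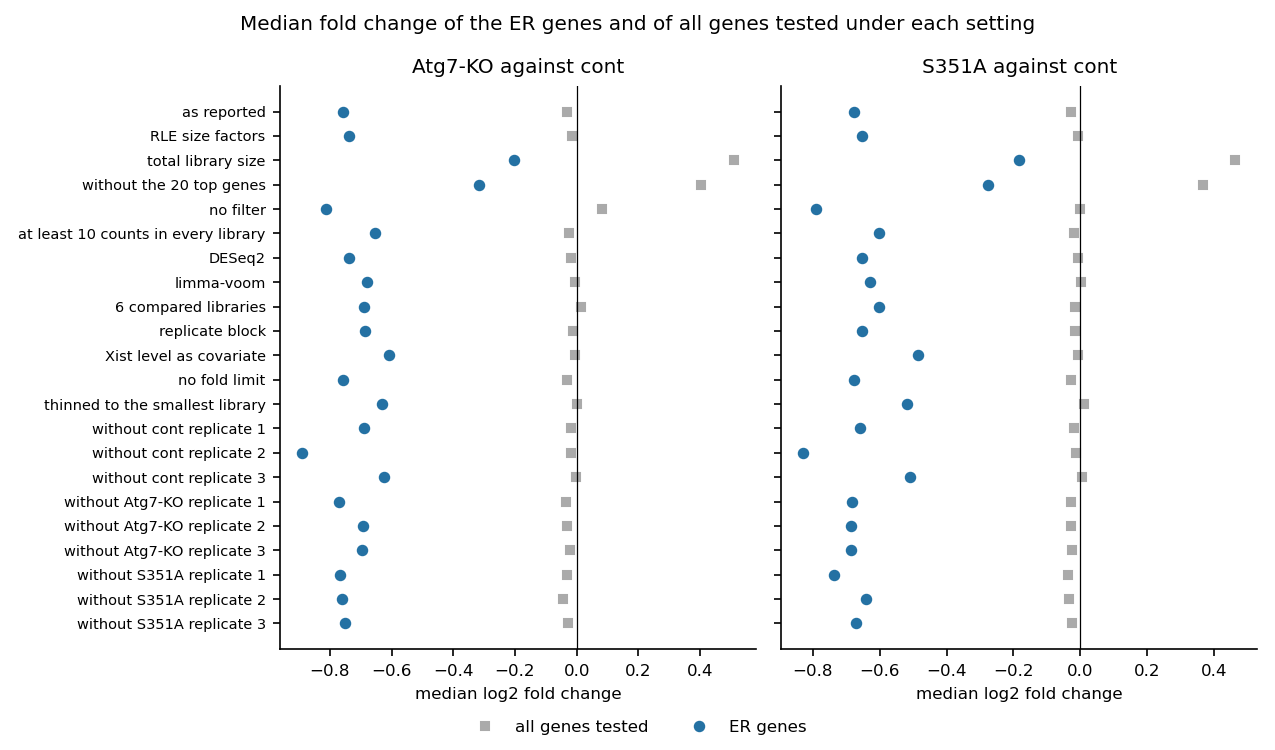
Median log2 fold change of the ER genes (circles) and of all genes tested (squares) under the reported setting and the 21 alternatives, for both comparisons with cont. Scaling by total counts moves the circle from -0.76 to -0.20 for Atg7-KO and the square by 0.54, and the circle lies left of the square in every row.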

How the data were processed

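RNA-seq of 9 mouse livers was analysed from 1 table of expected counts per gene and library. The authors made these expected counts from 75-bp single-end reads of poly(A) RNA (non-directional kit) with Trim Galore, STAR on mm10 and RSEM, whose versions are not given in the sources used here, and deposited them unnormalised. The extraction is given as RNeasy in the labels and as TRIzol in the methods. Here they were rounded, genes were kept by filterByExpr (minimum count 10, minimum total 15; 11199 of 24411), and groups of 3 were compared in 1 fit of all 9 libraries with the quasi-likelihood test of edgeR 4.0.16 in R 4.3.3 (TMM scaling, Benjamini-Hochberg over all genes). A gene was called at an adjusted p under 0.05 and a fold over 1.5. The SE was taken from the test. The 95% intervals are approximate, 1.96 SE wide on each side, which is narrower than the F test implies. For Edem3 in Atg7-KO against cont the interval is -1.147 to -0.034, with an unadjusted p of 0.0592 in that test. Exonic lengths came from GENCODE M21 and promoters from RefSeq.

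Totals of 713835 to 15426600 counts set the precision, and counting intervals cover counting error only. Nothing in the labels names litters or days, so p-values measure the spread between these livers. No pair of replicates agreed within sampling noise (chi-square of 2.33 to 112 per gene). In S351A against cont same-numbered samples deviated together (r = 0.235, 0.175 and 0.160). The pipeline was run on simulated counts with known changes in both directions. These did not hold the shift between scalings seen here, so that run does not test it. Alternatives used DESeq2 1.42.0 and limma 3.58.1 (voom), other scalings, filters, designs and thinning, and left out each library. All 37 genes were described against cont for Atg7-KO; for the S351A comparisons, names were taken from genes called in any comparison or with an unadjusted p under 0.05 against Atg7-KO, with Hspa5 and Xbp1. The members and lists were chosen with earlier results of these data known. Protein sequences were not used here.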

Additional observations from a re-analysis of the deposited data

How the results depend on the processing

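For Atg7-KO against cont, 8 of the 21 called genes kept their call under all alternatives run and 13 lost it under some, and none changed sign. Scaling by total counts gave 6 genes lower and 4 higher with a median of -0.20, and leaving the 20 most abundant genes out of the library size gave 8 lower and 4 higher with a median of -0.32. Both settings change only the scale, which moved the median of all genes by 0.54 and 0.43. Thinning to the smallest library left 12 lower. Leaving out single libraries gave 10 to 21 lower, 2 to 3 higher and medians from -0.89 to -0.63, with 10 lower without Atg7-KO replicate 2, 11 without replicate 1 and 14 without replicate 3. Some uncalled genes changed sign with total counts and without the 20 genes: Canx to 0.41 and 0.31, Txndc5 to 0.23 and 0.12, Derl2 to 0.30 and 0.20, Os9 to 0.23 and 0.13, Atf6 to 0.29 and 0.18, Eif2ak3 to 0.52 and 0.40, and Xbp1 to 0.079 with total counts. Eif2ak3 was also at 0.0065 in a fit of the 6 compared libraries, at 0.052 with the replicate block and at 0.24 with Xist as a covariate. Leaving out single libraries took Canx from -0.36 to 0.15 and Eif2ak3 from -0.34 to 0.29.

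For S351A against cont, 2 of 15 calls (Sdf2l1, Manf) were kept throughout and 13 were lost under some alternative, and none changed sign. Total counts gave 3 lower, 3 higher and a median of -0.18, the size without the 20 genes 3 lower, 3 higher and -0.28, the 6 compared libraries alone 5 lower, and the Xist covariate a median of -0.48. Single libraries left out gave 6 to 19 lower, 0 higher and medians from -0.83 to -0.51, with 6 lower without S351A replicate 2 and 10 without S351A replicate 1. With total counts Dnajc3 and Sel1l, reported at -0.45 and -0.41, were at 0.020 and 0.052. For S351A against Atg7-KO, DESeq2 called 1 gene higher and thinning gave a median of 0.11. In that comparison 11 of the 24 genes given, all uncalled, changed sign under some alternative. Opposite signs came with thinning for Sdf2l1 0.13 and Edem1 -0.032, with total counts for Manf -0.010, Pdia3 -0.018, Herpud1 -0.0029 and Edem1 -0.042, with the size without the 20 genes for Manf -0.0012, Pdia3 -0.0052 and Edem1 -0.031. They also came with no filter for Manf -0.021, Pdia3 -0.021, Herpud1 -0.017 and Edem1 -0.046, with limma-voom for Manf -0.021, Herpud1 -0.18 and Edem1 -0.0045, with the replicate block for Manf -0.060, Herpud1 -0.10 and Edem1 -0.010, with the Xist covariate for Herpud1 -0.19, with 10 counts in every library for Edem1 -0.014. Leaving out single libraries moved Dnajb11 from -0.018 to 0.19, Manf from -0.32 to 0.25, Pdia3 from -0.057 to 0.10, P4hb from -0.071 to 0.23, Herpud1 from -0.51 to 0.44, Edem1 from -0.14 to 0.14, Syvn1 from -0.081 to 0.15, Vcp from -0.13 to 3.94e-04, Ssr1 from -0.0091 to 0.090 and Ssr3 from -0.27 to 0.035. The cause of these shifts was not tested.

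With the replicate number as a block, Atg7-KO against cont gave 20 lower and 2 higher, the further gene being Ssr3. Same-numbered samples there correlated at 0.248, 0.0913 and -0.0415, and in S351A against Atg7-KO at 0.306, 0.0738 and 0.0919. In both comparisons replicates 1 and 2 correlated best with their own number, and replicate 3 with number 2. Whether the numbers pair animals cannot be told from the labels. The block changed no call in S351A against Atg7-KO. The filter on low counts left out Derl3 and Ern1, which entered the fit without a filter, and the strictest filter removed Sdf2l1, Dnajb9, Sec61b, Atf6b and Eif2ak3.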
